A study of Mus musculus with 69 samples.

Results

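Endothelial cells line the blood and lymph vessels of the lung, and 35 genes that mark them or work in them were followed here in whole lungs of mice given titanium dioxide nanoparticles. The genes were chosen by symbol, from knowledge of vessel biology but with earlier results of these data known. Their counts beside all genes are therefore a description. A probe was counted to a gene when the transcript accession in the scanner output belonged to that symbol. All 35 were measured, by 50 of the 25826 named probes in use, among 17628 genes in all. Each of 69 arrays held the lung RNA of 1 mouse in the red channel and a commercial pool of mouse RNA in the green channel. A level is therefore a log2 ratio of lung to that pool, and a difference of 1 between groups is a doubling. Lung RNA carried the same dye on every array, and a level can therefore hold dye bias.

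The mice were female C57BL/6, with no engineered allele named in the labels, and were 5 to 7 weeks old on arrival, followed by 1 to 3 weeks of acclimatisation. Each received 1 instillation into the trachea, of the vehicle alone or of 18, 54 or 162 µg of particles. The sample titles call the control water, and the design text gives the vehicle as water with 2% serum. NRCWE-001 is unmodified titanium dioxide, and NRCWE-002 is a surface-modified form that carries a positive charge. Lungs were taken on day 1 or on day 28. Each of the 14 groups had 5 mice, apart from the day 28 vehicle group with 4. Only part of a frozen lung was extracted, and whole-lung RNA cannot tell fewer endothelial cells from less RNA per cell.

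The genes fall into roles. Junction and adhesion proteins hold the vessel wall together and include Pecam1, the VE-cadherin gene Cdh5, the tight-junction gene Cldn5, Esam, Emcn and the connexins Gja4 and Gja5. Receptors for VEGF and the angiopoietins (Kdr, Flt1, Flt4, Tek, Tie1) and the phosphatase Ptprb govern vessel growth and survival. Acvrl1, Bmpr2 and Eng form the BMP and TGF-beta receptor group, whose loss is known from hereditary vascular disease of the lung. A further group receives peptides and guidance cues: Ramp2 with Calcrl for adrenomedullin, Ednrb for endothelin, Aplnr with its ligand Apln, and Robo4. The transcription factors are Erg, of the ETS family, the SOXF factors Sox7, Sox17 and Sox18, and Prox1 of lymphatic vessels. Secreted, vesicle and surface proteins are Vwf, Nos3, Egfl7, Car4, Plvap, Mmrn2, Clec14a and Lyve1. In the alveolar wall, Car4 and Ednrb mark one kind of capillary cell, and Aplnr and Plvap the other.

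Of the 35 genes, 34 had a probe well above background on all 69 arrays, among them the defining markers Pecam1, Cdh5, Kdr, Cldn5 and Vwf, so the label of the genes as expressed in these lungs held. The exception was Prox1, whose brightest probe was well above background on 9 arrays. Its level is not well above background, so no size of change is given for it, and it is named where it enters a count of a few genes.

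ETS factors bind a GGAA core, and the promoters of many endothelial genes are known to use it. Promoter sequences of 20 of the 35 genes were at hand, from RefSeq on assembly GRCm38.p6. The 250 bases before the start are shown for the 4 genes that serve as fixed examples in the results and have a single such window, with each GGAA, or TTCC for the other strand, in capitals.
Kdr promoter, chr5:75978456-75978705, minus strand: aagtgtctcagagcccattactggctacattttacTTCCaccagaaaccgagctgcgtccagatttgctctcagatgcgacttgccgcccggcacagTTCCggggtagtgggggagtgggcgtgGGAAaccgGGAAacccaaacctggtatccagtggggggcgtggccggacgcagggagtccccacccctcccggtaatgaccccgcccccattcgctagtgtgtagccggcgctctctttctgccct
Cldn5 promoter, chr16:18776597-18776846, plus strand: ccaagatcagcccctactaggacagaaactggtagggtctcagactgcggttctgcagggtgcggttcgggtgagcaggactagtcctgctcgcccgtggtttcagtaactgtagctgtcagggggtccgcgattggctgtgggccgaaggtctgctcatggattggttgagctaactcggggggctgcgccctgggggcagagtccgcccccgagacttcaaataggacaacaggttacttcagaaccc
Car4 promoter, chr11:84957504-84957753, plus strand: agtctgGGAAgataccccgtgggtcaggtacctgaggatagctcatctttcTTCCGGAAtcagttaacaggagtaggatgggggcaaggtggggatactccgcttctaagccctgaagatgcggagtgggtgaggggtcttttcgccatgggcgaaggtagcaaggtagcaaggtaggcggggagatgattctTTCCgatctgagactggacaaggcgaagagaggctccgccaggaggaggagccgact
Ednrb promoter, chr14:103843702-103843951, minus strand: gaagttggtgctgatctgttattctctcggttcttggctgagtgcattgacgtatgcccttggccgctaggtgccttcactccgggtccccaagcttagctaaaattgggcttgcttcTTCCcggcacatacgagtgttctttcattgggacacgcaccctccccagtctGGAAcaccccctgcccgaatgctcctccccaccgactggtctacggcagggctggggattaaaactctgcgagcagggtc
Kdr and Car4 each held 4 cores in this window, Ednrb held 2 and Cldn5 held 0. In Car4 a TTCC and a GGAA lay side by side. The longer form CAGGAA, or TTCCTG, was in none of these 4 windows. Among the 25 windows of the 20 genes, 92% held a GGAA core and 44% the longer form, against 93.4% and 25.7% of all 32851 windows. The core is short, so nearly every promoter holds it, and a match is not a binding site.

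The level of the 35 genes together was taken as the mean of their log2 ratios in an animal and called the endothelial score. Its mean per slide ran from 3.16 to 3.95, and its mean per group from 3.47 to 3.90. A slide is a glass plate that carried up to 4 arrays, and the slides are numbered here from 1 to 18. The 7 arrays of slides 8 and 18, scanned on the same day, had scores of 3.04 to 3.41, and the other 62 arrays had scores of 3.17 to 4.08 with a median of 3.76, so the ranges overlapped. The same 7 arrays had 79.3% to 87.6% of probes above background, against 60.8% to 79.6% on the others, and lower mean levels of all 6 marker lists of other cell types as well, such as 4.98 ± 0.30 against 5.54 ± 0.32 for airway epithelium (SD, n = 7 and 62). None of them was a vehicle array. The part of signal quality in the score was not tested. After removal of group means, a median of 60.4% of the remaining variation of the 35 genes lay between slides, with 77% for Esam, 73.8% for Cldn5 and 71.3% for Cdh5, against a median of 54.6% over all genes. These shares are not corrected for the number of slides, so part of each would arise without any difference between slides. The medians of the 35 genes against vehicle are therefore followed by their value with slide as a fixed block and, where a group held any of them, without these 7 arrays. Changes of single genes are given with slide as a block for some genes only, and not without these 7 arrays. Mouse 2 of the group at 162 µg of NRCWE-001 on day 28 was on slide 18.

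**Figure D1:**
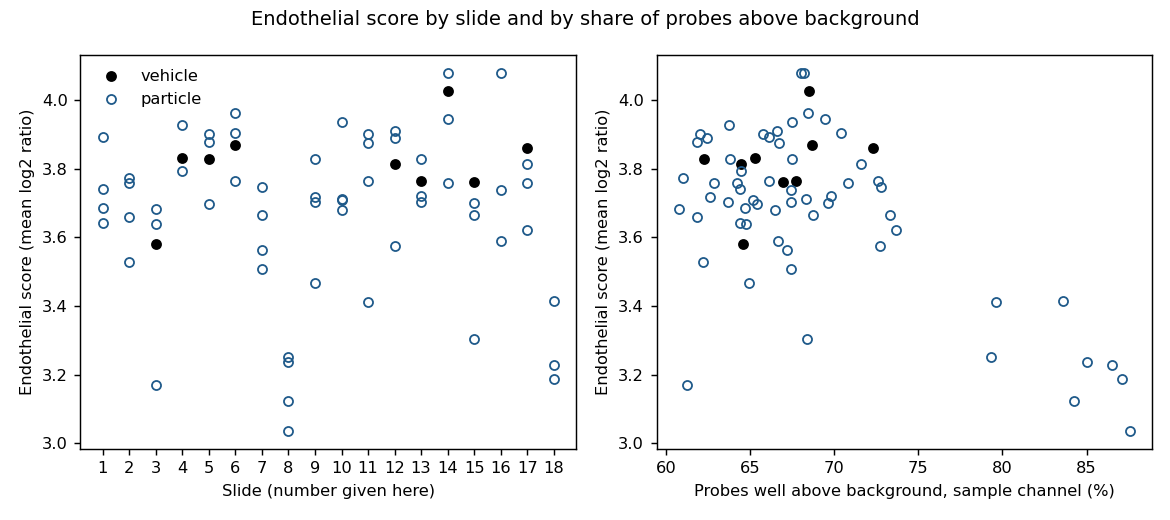
Endothelial score (mean log2 ratio of 35 genes) of 69 arrays, on the left by slide and on the right against the percent of probes well above background in the sample channel. Filled points are vehicle arrays and hollow points particle arrays, and the arrays of slides 8 and 18 form the low group at the right end of the second panel.

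By group, the score was highest at 54 µg of NRCWE-002 on day 28, at 3.90 ± 0.14, and lowest at 162 µg of NRCWE-001 on day 28, at 3.47 ± 0.26 (SD, n = 5 each). The vehicle mice of day 1 had scores of 3.77, 3.76, 3.86, 3.83 and 3.81, the tightest group. The vehicle mice of day 28 had scores of 4.02, 3.58, 3.83 and 3.87, the second of them on slide 3. At 162 µg of NRCWE-001 on day 28 the scores were 3.17, 3.23, 3.76, 3.64 and 3.53, so 3 of 5 lay below the lowest vehicle mouse. On the same day the 18 µg group of that particle had a mean of 3.66 ± 0.28 and the 54 µg group 3.81 ± 0.11, so the score did not fall step by step with dose. On day 1 the lowest group was 18 µg of NRCWE-001, at 3.54 ± 0.31, with scores of 3.72, 3.30, 3.81, 3.75 and 3.12, the last on slide 8. Neighbours in the order of the 14 group means differed by less than the larger of their SDs. Without slides 8 and 18 the group at 162 µg of NRCWE-001 on day 28 still had the lowest mean, 3.53 ± 0.26 (n = 4).

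**Figure D2:**
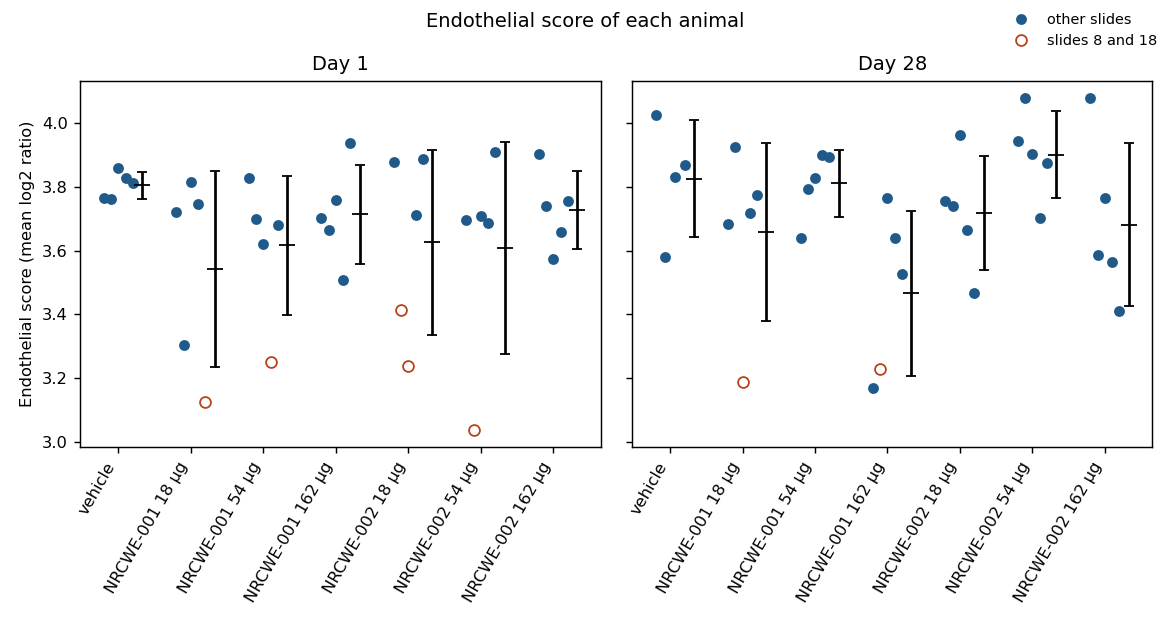
Endothelial score (mean log2 ratio of lung to reference over 35 genes) of each mouse by group, day 1 left and day 28 right, with the group mean and SD beside the points. Hollow points are arrays of slides 8 and 18, and the group at 162 µg of NRCWE-001 on day 28 has the lowest mean, 3.47.

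On slides that carried a vehicle mouse and exposed mice of the same day, the score could be compared within the slide. On day 1, 10 of 15 exposed arrays were below their vehicle, with a median difference of -0.06 and a range from -0.46 to 0.10. On day 28, 5 of 11 were below, with a median of 0.03 and a range from -0.41 to 0.10. The lowest of these was the 1 array of 162 µg of NRCWE-001 that shared a slide with a vehicle mouse, at 3.17 against 3.58. The other 4 arrays of that group lay on slides without a vehicle mouse.

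The first comparison set each dose against the vehicle of the same day, gene by gene. No endothelial gene passed an adjusted p of 0.05 in limma in any of the 12 contrasts, and the counts below are therefore of direction and of unadjusted p. Among all genes limma called 0%, 0% and 0.624% at 18, 54 and 162 µg of NRCWE-001 on day 1, and 0%, 0.113% and 0.59% for NRCWE-002. On day 28 it called 0.193%, 0.00567% and 0.0511% for NRCWE-001, and 0%, 0% and 0.00567% for NRCWE-002. The F-test over the 3 doses called 0 of the 35 genes for either particle on either day, against 0.879% and 0.686% of all genes under NRCWE-001, day 1 before day 28, and 0.771% and 0% under NRCWE-002. By that test, 9 of the 35 had an unadjusted p below 0.05 for NRCWE-001 on day 28, against 8.73% of all genes, and the lowest adjusted p was 0.0657, for Sox18. Under NRCWE-002 the count on day 28 was 1, against 4.61% of all genes, and on day 1 it was 2 for each particle, against 8.53% and 8.57%.

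**Figure D3:**
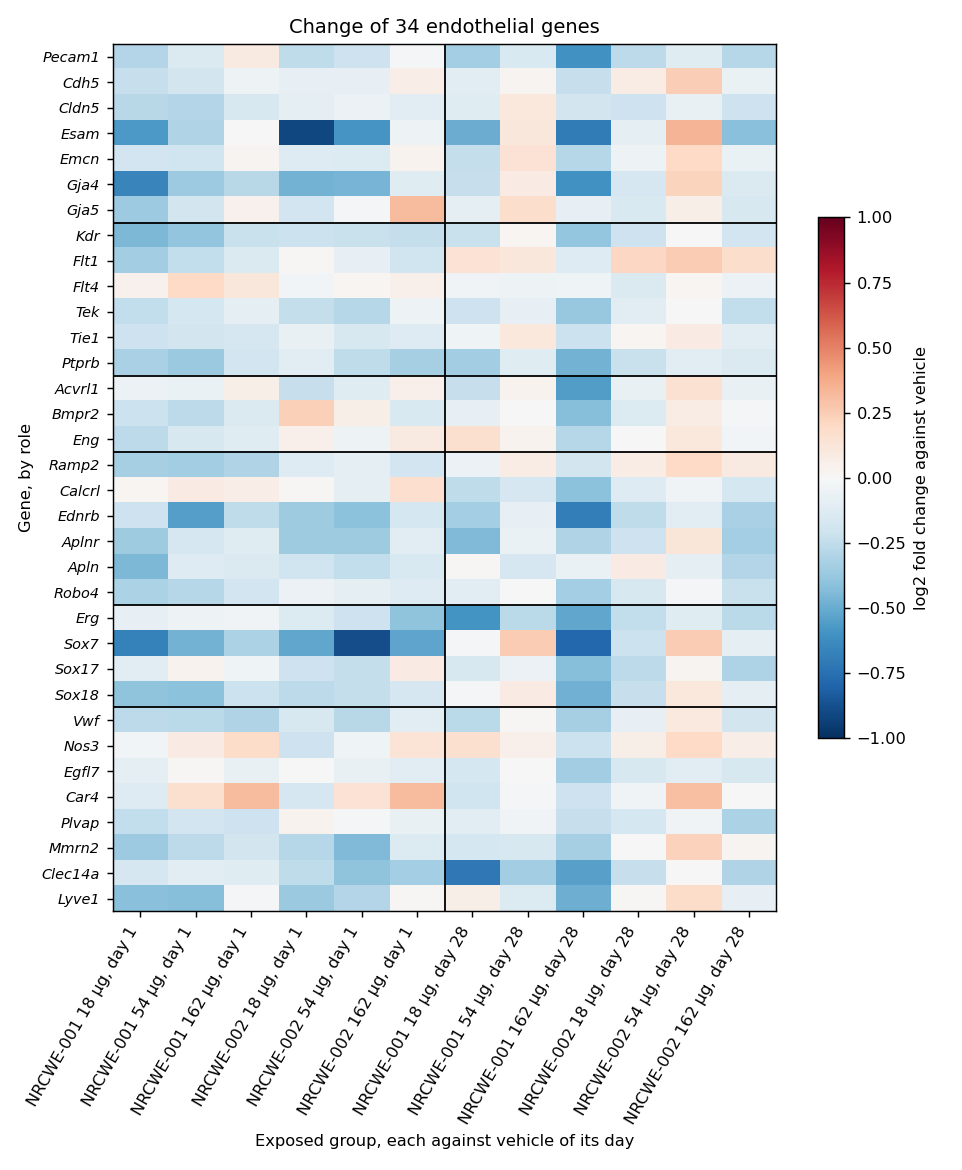
Log2 fold change against the vehicle of the same day for 34 endothelial genes (rows, grouped by role, Prox1 left out) in the 12 exposed groups (columns). Blue is lower and red higher, and the column of 162 µg of NRCWE-001 on day 28 is blue in all rows, from -0.79 for Sox7 to -0.05 for Flt4.

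At 162 µg of NRCWE-001 on day 28, all 35 genes were lower than in vehicle mice, where 49.2% of all genes were. The median of the 35 was -0.34 on the log2 scale, and that of all genes was 0.00. An unadjusted p below 0.05 was found for 14 of the 35, against 7.34% of all genes, and the lowest adjusted p was 0.264, for Sox18. Once slide entered as a block, 31 of 35 were lower (52.6% of all genes), the median was -0.16 and 3 had an unadjusted p below 0.05 (4.54%). Without slides 8 and 18, all 35 were lower (51.2%), the median was -0.30 and 12 had an unadjusted p below 0.05 (7.52%). The count of 14 became 5 without vehicle mouse 1 of day 28 and 9 without vehicle mouse 4. It became 8 without either mouse 1 or mouse 2 of the exposed group, and rose to 18 without vehicle mouse 2. The count also depended on the processing. It was 4 with processed signals, where 32 genes were lower, and 6 with scan day as a block. Median centring and slide as a random block each gave 12, array weights 17, and normexp and loess 20. In the same contrast the 8 measured leukocyte markers had a median of 0.04, the 7 of alveolar epithelium -0.18, the 3 of airway epithelium -0.21, the 8 of fibroblast and mural cell -0.22, the 3 of red blood cell -0.34 and the 5 of heart muscle 0.10. Their part in the shift of the endothelial genes was not tested.

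The 4 transcription factors above background ranged from -0.79 for Sox7 to -0.42 for Sox17 in this contrast, and 3 of them had an unadjusted p below 0.05. Sox7, which acts early in vessel formation, was at 4.75, 3.14, 3.60 and 4.47 in the vehicle mice and at 2.44, 3.03, 3.56, 3.56 and 3.43 in the exposed mice. The vehicle mice themselves spread widely, and the groups overlapped because of vehicle mouse 2, while the other 3 lay above all exposed mice. The change was -0.79 ± 0.30 (SE) with an adjusted p of 0.452 in limma, and -0.59 with slide as a block. Sox18, a regulator of vessel and lymphatic growth that was singled out after its values were seen, was at 5.03, 4.68, 4.66 and 4.68 in the vehicle mice and at 3.72, 4.46, 4.64, 4.60 and 4.02 in the exposed mice. These groups did not overlap, though the closest pair was 4.66 against 4.64, and the change was -0.48 ± 0.15 (SE), or -0.41 with slide as a block. Groups did not overlap for 3 of the 35 genes in this contrast, Sox18, Pecam1 and the dim Prox1, all lower in exposed mice, against 1.21% of all genes.

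The 7 junction and adhesion proteins had a median of -0.28 and ranged from -0.70 for Esam to -0.09 for Gja5. Pecam1, the adhesion receptor CD31, was at 3.29, 3.06, 3.23 and 3.14 in vehicle mice and at 2.60, 1.97, 2.89, 2.64 and 2.79 in exposed mice, so every exposed mouse was below every vehicle mouse. Its change was -0.60 ± 0.20 (SE), with an adjusted p of 0.333 in limma, and -0.24 with slide as a block. Cdh5, the cadherin of endothelial junctions, was at 5.67, 4.57, 5.32 and 5.61 in vehicle mice and at 4.01, 5.12, 5.52, 5.33 and 5.33 in exposed mice. Both low values, 4.57 and 4.01, came from slide 3, and the change of -0.23 ± 0.24 (SE) became 0.03 when the exposed mouse at 4.01 was left out. Cldn5 overlapped between the groups, at 6.51 to 7.17 in vehicle and 6.28 to 6.88 in exposed mice, with a change of -0.18 ± 0.18 (SE). Esam, a tight-junction adhesion protein, was at 5.56, 4.35, 5.12 and 5.12 in vehicle mice and at 3.98, 2.27, 5.23, 5.12 and 5.08 in exposed mice. Its low exposed values were on slides 3 and 18, 3 of 5 exposed mice matched the vehicle mice, and the change of -0.70 ± 0.56 (SE) became -0.02 with slide as a block.

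The 6 VEGF and angiopoietin receptors had a median of -0.30 in this contrast. Kdr, the main VEGF receptor of endothelial cells, was at 6.54, 6.13, 6.37 and 6.47 in vehicle mice and at 5.57, 5.96, 6.43, 6.07 and 5.93 in exposed mice. Only the exposed mouse at 6.43 lay inside the vehicle range, and the change was -0.39 ± 0.19 (SE), with an adjusted p of 0.674 in limma. The 3 BMP and TGF-beta receptors had a median of -0.43 and ranged from -0.56 for Acvrl1 to -0.28 for Eng, and 1 of them had an unadjusted p below 0.05. The 6 peptide and guidance receptors had a median of -0.32. Ednrb, the endothelin receptor of alveolar capillaries, was at 3.38, 3.03, 3.31 and 3.24 in vehicle mice and at 2.44, 1.93, 3.09, 2.64 and 2.66 in exposed mice. One exposed mouse, at 3.09, lay within the vehicle range, and the change was -0.69 ± 0.29 (SE), with an adjusted p of 0.529 in limma and -0.36 with slide as a block.

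The 8 secreted, vesicle and surface proteins had a median of -0.33. Vwf, the clotting factor stored in endothelial granules, was at 5.78, 5.57, 5.85 and 5.54 in vehicle mice and at 5.31, 4.94, 5.53, 5.61 and 5.37 in exposed mice, and its change was -0.33 ± 0.18 (SE). Car4, a carbonic anhydrase on the capillary surface, was at 4.15, 3.16, 3.59 and 3.63 in vehicle mice and at 3.18, 2.83, 3.77, 3.82 and 3.51 in exposed mice. The ranges overlapped from 3.16 to 3.82, with 1 mouse of each group outside that stretch, and the change of -0.21 ± 0.26 (SE) turned to 0.16 with slide as a block. By kind of vessel, the medians were -0.42 for the 3 arterial genes and -0.23 for the 5 alveolar capillary genes, with 1 gene in each at an unadjusted p below 0.05. Of the lymphatic genes above background, the change was -0.49 for Lyve1, the hyaluronan receptor of lymph vessels, and -0.05 for Flt4. Differences between kinds of vessel were not tested.

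**Figure D4:**
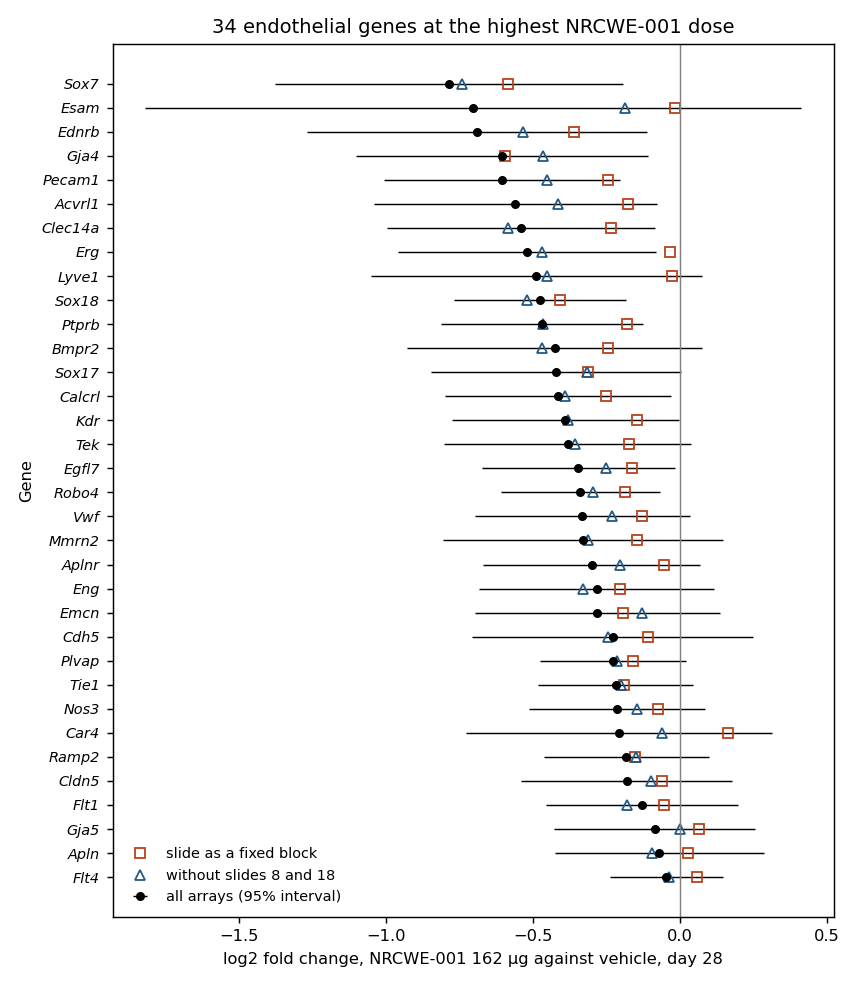
Log2 fold change of 34 endothelial genes at 162 µg of NRCWE-001 against vehicle on day 28 (black, all arrays, with the 95% confidence interval), with slide as a fixed block (squares) and without slides 8 and 18 (triangles). The squares lie closer to 0 for nearly all genes, and their median over all 35 genes is -0.16 against -0.34.

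At 162 µg of NRCWE-002 on day 28, 30 of the 35 genes were lower than in vehicle mice (53% of all genes), the median was -0.15 and 1 had an unadjusted p below 0.05 (7.27%). No array of this group was on slides 8 or 18. Its mouse 5, on slide 11, had 79.6% of probes above background, about as many as the lowest of those slides. That mouse had the lowest score of the group, 3.41, and the lowest value of each of the 3 genes below. The part of signal quality in these values was not tested. With slide as a block 31 were lower, the median was -0.21 and 9 had an unadjusted p below 0.05 (8.02%), and the lowest adjusted p was 0.377. That median lay below the -0.16 of NRCWE-001 at 162 µg in the same fit. The order of the particles also turned with median centring (-0.36 against -0.26), scan day as a block (-0.23 against -0.15) and processed signals (-0.31 against -0.30). It held with normexp and loess, the probe filters and means, slide as a random block, array weights and without slides 8 and 18. The 3 genes with the largest changes were Esam, Aplnr and Ednrb. Aplnr, the apelin receptor, was at 2.13, 2.00, 1.86 and 2.14 in vehicle mice and at 2.20, 1.43, 2.02, 1.49 and 1.35 in exposed mice, so 3 of 5 lay below all vehicle mice, and the change was -0.34 ± 0.18 (SE). Esam was at 5.72, 4.55, 4.48, 4.91 and 3.45 in exposed mice, a change of -0.42 ± 0.56 (SE). Ednrb was at 3.34, 2.63, 3.03, 3.06 and 2.51, a change of -0.33 ± 0.29 (SE). The 5 heart muscle markers had a median of 1.81 in this contrast, with 0 called and 4 at an unadjusted p below 0.05, and their part in these values was not tested.

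The lower doses of NRCWE-001 on day 28 gave smaller shifts than 162 µg. For NRCWE-002 the medians at 18 and 162 µg were nearly equal, at -0.14 and -0.15. With array weights these 2 medians of NRCWE-002 were -0.19 at 18 µg and -0.14 at 162 µg. With median centring in place of loess, 18 µg of NRCWE-002 was at -0.31, below 162 µg of NRCWE-001 at -0.26. At 18 µg the median of the 35 genes was -0.16 for NRCWE-001, with 30 lower, and -0.14 for NRCWE-002, with 28 lower, against 49.7% and 52.7% of all genes. An unadjusted p below 0.05 was found for 4 and 0 of the 35, against 6.62% and 6.5% of all genes. For 18 µg of NRCWE-001 the direction turned with slide as a block, with a median of 0.03 and 11 lower (53.4% of all genes), and without slides 8 and 18 the median was -0.01 with 20 lower (50%). For 18 µg of NRCWE-002 the slide block gave -0.13 with 29 lower (53.2%). At 54 µg the medians were 0.00 and 0.08, and 17 and 13 of the 35 were lower, against 49.9% and 50.4% of all genes, and 0 had an unadjusted p below 0.05 under either particle, against 2.58% and 4.98%. The slide block gave medians of 0.09 and 0.01, with 8 and 16 lower (51.5% and 53.6%).

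On day 1 the lowest median of the 35 genes was at the lowest dose of NRCWE-001. This order did not hold with slide as a fixed block, where 162 µg of NRCWE-002 was lowest at -0.14, or with median centring, where 18 µg of NRCWE-002 was lowest at -0.21 against -0.16. At 18 µg, 32 of the 35 genes were lower than in vehicle mice (48.5% of all genes), the median was -0.26 and 12 had an unadjusted p below 0.05 (5.28%), with a lowest adjusted p of 0.837. With slide as a block, 26 were lower (50.8%), the median was -0.10 and 6 had an unadjusted p below 0.05 (9.21%). Without slides 8 and 18, 26 were lower (51.8%), the median was -0.17 and 7 had an unadjusted p below 0.05 (4.84%). The count of 12 became 5 without exposed mouse 2, 6 without exposed mouse 5 and 8 without vehicle mouse 3. It was 3 with median centring, 7 with slide as a random block and 9 with scan day as a block. Normexp and loess, processed signals and array weights each gave 8. In the same contrast the airway epithelium markers had a median of -0.22, those of alveolar epithelium -0.12, leukocyte -0.07, fibroblast and mural cell -0.17, red blood cell -0.17 and heart muscle 0.37, and their part in the shift was not tested. At 54 and 162 µg the medians were -0.19 and -0.12, with 28 and 26 lower (43.3% and 50.3% of all genes) and 7 and 1 at an unadjusted p below 0.05 (4.99% and 7.32%). The slide block gave medians of -0.06 and -0.07 with 23 and 27 lower (46.9% and 49.5%), and at 54 µg without slides 8 and 18 the median was -0.14 with 24 lower (44.9%). The medians at 18, 54 and 162 µg of NRCWE-002 were -0.17, -0.16 and -0.11, with 28, 31 and 24 lower (47.3%, 46.4% and 48%) and 2, 2 and 1 at an unadjusted p below 0.05 (4.16%, 6.75% and 9.36%). The slide block gave 0.01, -0.08 and -0.14, with 16, 28 and 25 lower (48.9%, 48.2% and 49.1%). Without slides 8 and 18 the median at 18 µg of NRCWE-002 was 0.06 with 11 lower (49.2%), and at 54 µg it was -0.03 with 20 lower (47.9%). With median centring the median at 162 µg of NRCWE-002 turned to 0.05. Those at 54 and 162 µg of NRCWE-001 were then -0.0192 and -0.0006, with medians of all genes at 0.08 and 0.05.

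Sox18 was among the genes whose groups did not overlap on day 1. It was at 4.90, 4.65, 5.01, 4.76 and 4.69 in vehicle mice, at 4.63, 4.27, 4.58, 4.34 and 4.17 at 18 µg of NRCWE-001, and at 4.60, 4.57, 4.21, 4.18 and 4.41 at 54 µg. Both exposed groups lay wholly below the vehicle mice, by -0.41 ± 0.14 (SE) each, with adjusted p of 0.837 and 0.663 in limma, and by -0.29 each with slide as a block. Gja4, a connexin of arterial endothelium also singled out after its values were seen, was at 4.85, 5.00, 5.26, 4.86 and 5.04 in vehicle mice and at 4.68, 4.28, 4.73, 4.26 and 3.74 at 18 µg of NRCWE-001. Its groups did not overlap there, with a change of -0.66 ± 0.23 (SE), nor at 54 µg of NRCWE-002, at 4.78, 3.62, 4.67, 4.83 and 4.78. The lowest values of these exposed groups, 3.74 and 3.62, were on slide 8, and the highest at 54 µg, 4.83, was close to the lowest vehicle value of 4.85. Over the 35 genes, groups did not overlap for 2 at 18 µg and 2 at 54 µg of NRCWE-001 and for 1 at 54 µg of NRCWE-002, all lower, against 0.567%, 1.09% and 1.42% of all genes. The other gene at 54 µg of NRCWE-001 was Ednrb.

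At 162 µg on day 1 the genes with the largest changes were Sox7, Car4 and Ramp2 for NRCWE-001 and Sox7, Erg and Clec14a for NRCWE-002. Sox7 was at 3.81, 4.15, 4.49, 3.86 and 4.68 in vehicle mice, at 3.79, 3.92, 4.09, 3.30 and 4.30 under NRCWE-001, and at 3.61, 3.55, 3.39, 3.63 and 4.17 under NRCWE-002. The changes were -0.32 ± 0.28 and -0.53 ± 0.28 (SE), and 4 of the 5 NRCWE-002 mice lay below all vehicle mice. Car4 went the other way from most of the list, at 3.84, 3.66, 3.77, 3.33 and 3.68 in vehicle mice and 4.21, 3.83, 4.20, 3.55 and 4.08 under NRCWE-001, a change of 0.32 ± 0.24 (SE) with an adjusted p of 0.979 in limma. Ramp2, the partner that makes Calcrl an adrenomedullin receptor, was at 5.49, 5.22, 5.49, 5.46 and 5.58 in vehicle mice and 5.16, 5.01, 5.29, 4.92 and 5.35 under NRCWE-001. Its change was -0.30 ± 0.13 (SE), with an adjusted p of 0.542 in limma. Erg was at 1.83, 1.50, 1.92, 1.79 and 1.32 in vehicle mice and 1.33, 1.37, 1.35, 1.21 and 1.09 under NRCWE-002, a change of -0.40 ± 0.21 (SE). Clec14a, a surface lectin of vessels, was at 2.14, 2.72, 2.59, 2.48 and 2.24 in vehicle mice and 2.38, 2.03, 2.03, 1.70 and 2.30 under NRCWE-002, a change of -0.34 ± 0.21 (SE).

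**Figure D5:**
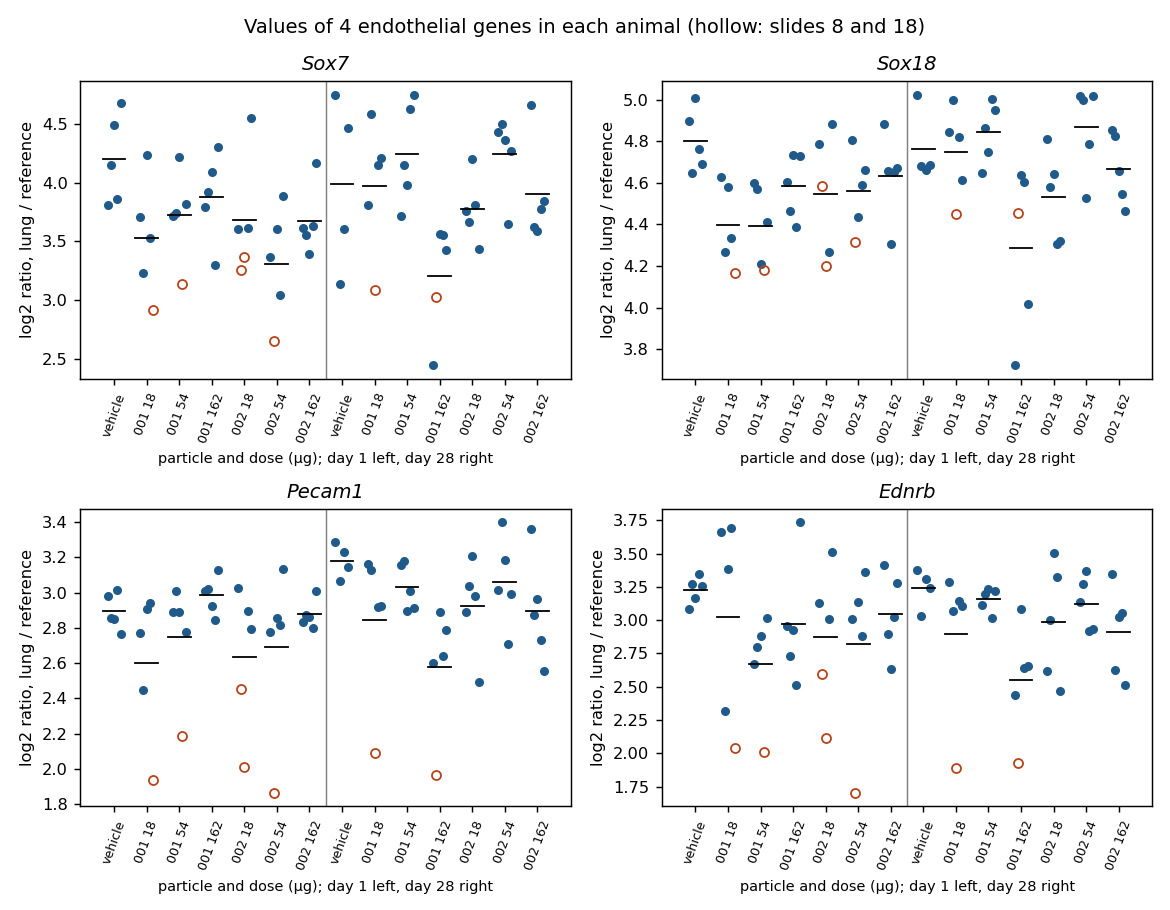
Log2 ratio of lung to reference for Sox7, Sox18, Pecam1 and Ednrb in each mouse, by group, with day 1 left and day 28 right of the grey line and the group mean as a short line. Hollow points are arrays of slides 8 and 18, which lie at or near the bottom of most of their groups for Pecam1 and Ednrb.

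Over the whole series, each of these genes had its own order of group means. Pecam1 was highest in the vehicle mice of day 28, at 3.18 ± 0.10 (SD, n = 4), above 2.89 ± 0.10 (SD, n = 5) in those of day 1. The vehicle groups of the 2 days did not overlap for Pecam1, the only one of the 35 genes, higher on day 28, against 1.93% of all genes that did not overlap in this direction. The difference was 0.29 ± 0.20 (SE), with an adjusted p of 0.929 in limma, and 0.00 with slide as a block. Limma called 0 of the 35 genes and 0% of all genes between the vehicle groups, with 1 of the 35 and 5.04% of all at an unadjusted p below 0.05. Ednrb was highest in the vehicle mice of both days, at 3.23 ± 0.10 (SD, n = 5) on day 1 and 3.24 ± 0.15 (SD, n = 4) on day 28, and lowest at 162 µg of NRCWE-001 on day 28, at 2.55 ± 0.42 (SD, n = 5). Kdr ran from 5.99 ± 0.31 in that same exposed group to 6.48 ± 0.10 in the vehicle mice of day 1 (SD, n = 5 each). Sox7 ran from 3.20 ± 0.48 in that group to 4.24 ± 0.43 at 54 µg of NRCWE-001 on day 28 (SD, n = 5 each). Cldn5 and Vwf had their lowest means in other groups, at 6.31 ± 0.23 for Cldn5 at 54 µg and 5.26 ± 0.21 for Vwf at 162 µg of NRCWE-001 on day 1 (SD, n = 5 each).

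The effect of 162 µg was compared between days by an interaction term. For NRCWE-001, the effect on day 28 was lower than on day 1 for 32 of the 35 genes (49.9% of all genes), with a median of -0.27, and for NRCWE-002 for 23 (53.6%), with a median of -0.10. Limma called 0 of the 35 and 0% of all genes in both, and 1 of the 35 had an unadjusted p below 0.05 in each, against 3.85% and 6.7% of all genes. Under the slide block the medians were -0.09 and -0.14.

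The particles were compared with each other over the 3 doses, 15 mice of each on each day. On day 1 the median difference, NRCWE-002 minus NRCWE-001, was 0.04, and 16 of the 35 genes were lower under NRCWE-002 (49.7% of all genes). Limma called 0 of the 35 and 0.108% of all genes, while 5 of the 35 and 8.87% of all had an unadjusted p below 0.05. On day 28 the median difference was 0.14 and 30 of the 35 were higher under NRCWE-002, where 52.2% of all genes were lower. Limma called 0 of the 35 and 6.73% of all genes, and 4 of the 35 and 23.3% of all had an unadjusted p below 0.05. The day 28 arrays on slides 8 and 18 were all of NRCWE-001. Without these slides the median difference was 0.06 with 26 of the 35 higher, where 51.2% of all genes were lower. The direction turned with slide as a block, to a median of -0.10 with 5 of 35 higher. Slides 9 and 11, which carried both particles on day 28, had a lower mean score under NRCWE-002 by -0.19 each. Slide 9 had 3.70 under NRCWE-002 against 3.83 under NRCWE-001 at 54 µg, and 3.47 against 3.72 at 18 µg. Slide 11 had 3.87 against 3.90 at 54 µg, and 3.41 against 3.76 at 162 µg. The mouse at 3.41 was mouse 5, with 79.6% of probes above background. On slides 8 and 10, which carried both on day 1, the difference in mean score was -0.05 and -0.10. Slide 10 was not matched by dose, with NRCWE-001 at 54 and 162 µg and NRCWE-002 at 18 and 54 µg. Its mice at 54 µg had scores of 3.68 under NRCWE-001 and 3.71 under NRCWE-002. The 5 heart muscle markers were all higher under NRCWE-002 on day 28, with a median of 0.73. The gene nearest the threshold was Clec14a, at 1.46 to 2.93 with a median of 2.22 under NRCWE-002 and 1.31 to 2.33 with a median of 1.89 under NRCWE-001. The difference was 0.36 ± 0.12 (SE; 95% confidence interval 0.11 to 0.61), with an adjusted p of 0.0608 in limma, and -0.06 with slide as a block. Both particles were given at the same doses on the same days, so the limma contrasts are at matched dose and time. A difference that misses the threshold does not show that the particles act alike.

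Other genes of vessel biology were taken from a list of 39, of which 37 were measured and Apela and Tal1 were not. In the 12 contrasts with vehicle, 0 of the 37 were called. The F-test over the 3 doses of NRCWE-001 on day 28 called Id1, with an adjusted p of 0.0262. It called 0.686% of all genes. This test gives no direction, and its value for Id1 with slide as a block was not kept. F-test values were kept only for those of the 37 that were called between the particles, given below. At 162 µg of NRCWE-001 on day 28, 25 of these other vessel genes were lower (49.2% of all genes), with a median of -0.17. The 7 genes of the Notch pathway had a median of -0.13, the 13 vessel ligands and co-receptors -0.10, the 12 factors and targets -0.20 and the 5 genes of endothelial activation 0.05. On day 1 at 162 µg, 4 of the 5 activation genes, the selectins and adhesion molecules that catch leukocytes, were higher under each particle, with medians of 0.23 for NRCWE-001 and 0.25 for NRCWE-002. Of all genes, 50.3% and 48% were lower in these contrasts. Of the activation genes, 2 and 3 had an unadjusted p below 0.05 (7.32% and 9.36% of all genes) and 0 were called (0.624% and 0.59%).

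Between the particles on day 28, 3 of the 37 were called by limma, against the 6.73% of all genes given above. Klf4, a flow-responsive transcription factor, was lower under NRCWE-002, at 0.99 to 3.08 with a median of 1.92, against 2.23 to 2.95 with a median of 2.73 under NRCWE-001. The difference was -0.73 ± 0.17 (SE), with an adjusted p of 0.00913 in limma. Id1, a target of BMP signals, was also lower under NRCWE-002, at -0.16 to 1.12 with a median of 0.37, against -0.04 to 1.33 with a median of 0.94. The difference was -0.42 ± 0.10 (SE), with an adjusted p of 0.0111 in limma. Vegfb, a VEGF family ligand, was higher under NRCWE-002, at -1.33 to -0.45 with a median of -1.19, against -1.46 to -1.06 with a median of -1.31, a difference of 0.22 ± 0.07 (SE) and an adjusted p of 0.0345 in limma. With slide as a block none of the 3 was called by limma, with Id1 nearest at an adjusted p of 0.259 and Vegfb farthest at 0.851. The differences were then -0.83 for Klf4, -0.48 for Id1 and 0.10 for Vegfb. The Vegfb call was also lost with processed signals, slide as a random block, scan day as a block and array weights, with adjusted p from 0.063 to 0.894 in limma, and in 6 of 30 fits with 1 array left out. The difference in Vegfb turned to -0.10 when arrays were centred on their median in place of loess.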

How the data were processed

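Gene expression had been measured in lungs of 69 mice on Agilent 2-colour whole-genome mouse arrays. The deposited table held log2 ratios of lung (Cy5) to reference RNA (Cy3), which the authors had normalized within each array by LOWESS. The deposited scanner output (Feature Extraction 11.0.1.1) held the intensity of each spot, not normalized by the authors, and its processed signals. Per array, the deposited ratios correlated at 0.987 to 0.995 with ratios computed from the scanner intensities by normexp (offset 50) and loess, and their medians ran from -0.06 to -0.00, so their scale and direction were taken as log2 of lung over reference.

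Probe accessions were matched to RefSeq symbols (GRCm38.p6, names only, since the array follows an older build), which named 27479 of 41174 probes (66.7%). Probes well above background on at least 4 arrays were kept, and a gene was the median over its probes. Slides and scan days came from the scanner output. Between 60.8% and 87.6% of probes were above background per array. Precision is bounded by the few arrays in a group.

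Groups came from the labels, with 1 mouse per array. limma 3.58.1 (R 4.3.3) was fitted to all 69 arrays with 14 group means, and p-values were adjusted by Benjamini-Hochberg over 17628 genes in each contrast. Called genes had adjusted p-values below 0.05. Tests were 2-sided, except the F-test. The fit was tested on simulated data. Alternatives were the other intensities and scalings, filters, probe means, slide or scan day as a block, array weights, each array left out, and, added after the data were seen, leaving out slides 8 and 18.

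The 35 genes and all lists were chosen with earlier results of these data known. Named were genes called in any test, the 3 largest changes at 162 µg for each particle and day, and Pecam1, Cdh5, Kdr, Cldn5, Vwf, Car4 and Ednrb. For the other vessel genes, only a call in a contrast counted. Cd68, Scgb3a2 and Hbb-b1 of the marker lists were not measured. Promoter windows were searched for GGAA and CAGGAA on both strands.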

Additional observations from a re-analysis of the deposited data

Results flagged for a closer look

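The highest or lowest sample was compared with the rest of its group in 76 groups, and 7 held a sample that stood apart by Dixon's test, which chance gives in about 1 group in 20. The endothelial score of mouse 2 at 54 µg of NRCWE-002 on day 1 was 3.04, on slide 8, and the next lowest of its group was 3.69. Cdh5 in mouse 1 at 162 µg of NRCWE-001 on day 28 was 4.01, on slide 3, against 5.12 or higher in the other mice of that group. Sox18 in vehicle mouse 1 of day 28 was 5.03, on slide 14, against 4.68 or lower in the others. Vegfb was -0.84 in mouse 2 at 54 µg and -0.48 in mouse 2 at 162 µg of NRCWE-002 on day 28, both on slide 16, against -1.24 and -1.12 as the next values. Klf4 in mouse 4 at 54 µg of NRCWE-001 on day 28 was 2.44, on slide 11, against 2.75 or higher. Id1 in mouse 3 at 18 µg of NRCWE-002 on day 28 was 1.12, on slide 6, against 0.45 or lower.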

How the results depend on the processing

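The filters on dim probes, the mean over probes and the scanner intensities with normexp and loess left every count of called genes at 0 and moved no mean change by more than the spread between animals. That spread, a within-group SD of 0.22, is larger than most mean changes against vehicle, so a change could turn and stay unlisted. The median difference between particles on day 28 (0.14) was -0.0019 with processed signals and -0.0146 with median centring. The causes of the changes below were not tested.

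For the mean change of the 35 genes, slide as a fixed block gave 0.053 for 18 µg of NRCWE-001 on day 28 (reported as -0.17) and -0.10 for NRCWE-002 minus NRCWE-001 on day 28 (0.12). The difference between days in the effect of 162 µg of NRCWE-002 (-0.07) was -0.29 with processed signals and -0.33 with median centring, which shifted the median of all genes by -0.13 in that contrast.

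The number of genes called, 0 as reported, was higher in several fits. Between particles on day 28, median centring called 4 of the 35 and 25.6% of all genes, Cldn5, Apln and Plvap lower and Clec14a higher under NRCWE-002. For the dose effect of NRCWE-001 on day 28, slide as a fixed block called 2 (Sox18 and Sox7, 2.17% of all genes), slide as a random block 3 (with Gja4, 3.37%), scan day as a block the same 3 (2.17%), array weights 5 (9.33%) and leaving out slides 8 and 18 1 (Sox18, 1.36%). Slide as a random block called 1 (Sox7, 1.25% of all genes) at 54 µg of NRCWE-002 on day 1, and scan day as a block 1 (Ramp2, 3.99%) at 162 µg. Array weights called 3, 1, 2 and 7 for NRCWE-001 at 54 and 162 µg on day 1 and 18 and 162 µg on day 28 (3.51%, 6.3%, 1.89% and 6.47% of all genes), 1 between particles on each day (4.08% and 2.12%), and 2 for the dose effect of NRCWE-001 on day 1 (10%). With 1 array left out, the count ran from 0 to 1 between particles on day 28 (Clec14a in 5 fits, with 6.43% to 10.2% of all genes) and from 0 to 1 for the dose effect of NRCWE-001 on day 28 (Sox18 in 3 fits, 0.686% to 1.78%).

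Directions that turned were as follows. With processed signals, Car4 at 162 µg of NRCWE-001 was -0.22 on day 1, and on day 28 Cdh5 was 0.0225 and Kdr 0.0464. Car4 in the latter contrast was 0.16, 0.0105 and 0.12 with slide as a fixed block, a random block or scan day as a block. Cdh5 there ran from -0.47 to 0.0347 with 1 array left out. Clec14a between particles on day 28 was -0.0579 and -0.0936 with slide or scan day as a fixed block, and Vegfb was -0.10 with median centring.

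No paired analysis was possible because the replicate numbers only follow the order of the samples and pair no mice. Slides shared by mice of different groups were used as a block and for differences within slides instead. The number of arrays per group, and slides shared by few groups, limit what these values can show.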
